A study of Mus musculus with 6 samples.

Results

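Primary embryonic neurons were set against fibroblasts cultured from mouse embryos (MEF) on 1 single-colour oligonucleotide array each. The MEF array also carried macrophage markers, described below. The members of the comparison were the probes marked by the scanner software as well above background on at least 1 of these 2 arrays, which were 34514 of the 39429 probes on the array. Of these, 29193 were well above background on both arrays, 4748 on the neuron array alone and 573 on the MEF array alone. Of all probes on the array, 27234 (69.1%) were given a gene symbol, and 18773 of 20659 genes had a brightest probe that met the same condition and are called tested below. The other 4 arrays of the study hold cells labelled as Tet3-induced neurons, at 1, 3, 5 and 7 days after infection (dpi), and enter here only where they are named. Both samples compared are labelled as E13.5 mouse cells, and neither label gives a genotype, an allele or a treatment with virus. The labels' protocol gives ICR embryos as the source of MEF. The strain of the neurons, the brain region they came from, how they were purified and how long they were cultured are not given in the sources used here, and nor is the number of embryos behind either array.

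There was 1 array per group, so no test between the groups was possible and each difference describes this pair of arrays. Levels are log2 values with the 75th percentile of the array at 0, and a difference is the neuron level minus the MEF level. A gene well above background on only 1 array has a bound, written as "at least", in place of a measured difference. The scanner's error model gave a median of 0.204 log2 for a difference, which covers the array and not the spread between cultures. Each gene is given by its brightest probe, and of 119 named genes called at 2-fold that have several probes, 30 have one that does not share the call and 6 of these one called the other way. Well above background were 86.08% of probes on the neuron array and 75.49% on the MEF array. The MEF array was scanned with the 1 dpi array and the neuron array with the other 3, so scan and cell type cannot be told apart. Because RNA of bulk samples was measured, a lower level in one sample cannot be told apart as fewer cells of a type or less RNA per cell.

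The neuron array was higher for the machinery of axons and synapses and for markers of neural progenitors, astrocytes and ciliated cells, and the MEF array was higher for matrix proteins, mesenchymal transcription factors, Hox genes and macrophage genes. At least 2-fold higher in neurons were 5688 of 18773 genes (30.3%), and at least 2-fold lower were 3005 (16%), which together made 46.3%. Counted over probes, 33% were higher and 14.1% lower. At 8-fold the shares of genes were 7.6% higher and 3.8% lower. At least 32-fold higher were 503 genes (2.68%) and at least 32-fold lower were 250 (1.33%), and at 100-fold the shares were 0.831% and 0.357%. The 6 genes at least 1000-fold higher (0.032%) were Mlc1, Stmn3, Ttr, Foxj1, Fabp7 and Bcan, and the 3 at least 1000-fold lower (0.016%) were Agtr2, Mrc1 and Aspn. Over the 16465 genes measured on both arrays the levels of neurons and MEF correlated at 0.784 across genes, which are not replicates, and the median difference was 0.10. The split between higher and lower depends on the scaling: 65.4% of the genes called at 2-fold were higher in neurons with the authors' scaling, 46.6% after quantile normalization and 38.4% after centring each array on its median. The median difference of all tested genes was 0.26, 0 and -0.33 in those 3 settings, so differences well under 1 log2 carry no settled direction below.

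**Figure D1:**
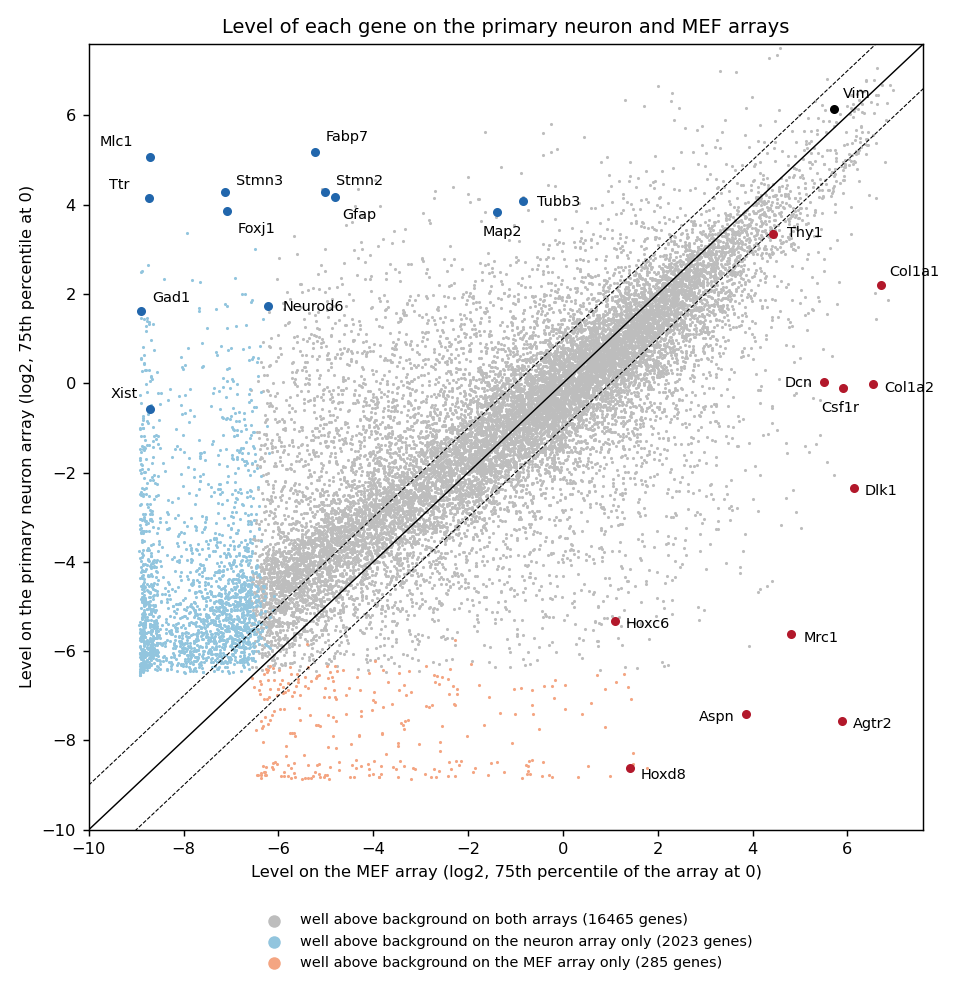
Level of each tested gene on the primary neuron array (vertical axis) and the MEF array (horizontal axis), both in log2 with the 75th percentile of the array at 0. Grey points were well above background on both arrays, pale blue ones on the neuron array alone and pale orange ones on the MEF array alone. Dashed lines mark 2-fold differences, large blue and red points are labelled genes at least 2-fold higher or lower in neurons and Vim, in black, lies within 2-fold. Stmn3, Mlc1, Ttr and Foxj1 lie far above the diagonal, and Agtr2, Aspn and Mrc1 far below it.

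Neurons are post-mitotic cells that build long axons on stabilised microtubules and signal through vesicle release, ligand-gated receptors and voltage-gated channels. Fibroblasts make and remodel collagenous matrix and keep, in culture, a record of the body position they came from in their Hox expression. Many genes of the neuronal programme are kept off in non-neuronal cells by the repressor REST, which binds a DNA element called RE1.

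The defining markers of neurons were present on the neuron array, as were markers of other brain cells described further on: 27 of 30 pan-neuronal genes passed 2-fold upwards and 1 downwards, all 30 were well above background, and the median difference was 5.33 log2. Stmn3, a stathmin that regulates microtubule growth, had a level of 4.28 in neurons and -7.12 in MEF, where it was not well above background, and was at least 1881-fold higher. Its relative Stmn2, known for axon growth and repair, had 4.29 in neurons and -5.02 in MEF, a difference of 9.30. Elavl3, an RNA-binding protein of neurons, was at least 542-fold higher, with 2.48 in neurons and -8.89 in MEF. The 3 largest values of the list thus came from cytoskeletal and RNA-binding markers that were low or not well above background in MEF. Mapt, which encodes tau, had 4.56 in neurons and -3.96 in MEF (366-fold higher). Dcx, a microtubule protein of migrating young neurons, had 2.14 in neurons and -5.27 in MEF (171-fold higher). The markers most used to stain neurons differed less, and all were well above background in MEF. Tubb3, the neuronal beta tubulin, had 4.09 in neurons and -0.85 in MEF (30.7-fold higher). Map2, of dendrites, had 3.84 in neurons and -1.38 in MEF (37.2-fold higher), and Rbfox3, the antigen NeuN of mature neurons, had 0.11 in neurons and -5.35 in MEF (43.8-fold higher).

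The member against the direction of the list was Thy1, a surface glycoprotein of both neurons and fibroblasts, with 3.36 in neurons and 4.43 in MEF, a difference of -1.07 that was -0.61 after quantile normalization. Celf4 and Elavl4 lay within 2-fold on their brightest probe, but their other probes disagreed. The second Celf4 probe had 2.42 in neurons and -3.43 in MEF, a difference of 5.85 against 0.21 for the brightest one. The second Elavl4 probe was at least 4.16 log2 higher in neurons, against -0.30 for the brightest one. The neuronal cytoskeleton and axon growth list had a median of 3.37, and 26 of its 32 genes passed 2-fold upwards and 1 downwards. Kif5a, a motor of axonal transport, had 4.15 in neurons and -2.73 in MEF (118-fold higher) on its brightest probe and a difference of 0.15 on the other. Ank3, the scaffold of the axon initial segment, had -0.56 in neurons and -4.03 in MEF (11.1-fold higher). Dpysl5, a collapsin response mediator protein, was the lower member, with 1.51 in neurons and 2.86 in MEF (-1.35).

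Of 30 genes of synaptic vesicles and the active zone, 27 were higher and none lower, with a median of 3.50. Syt1, the calcium sensor of fast release, had 3.00 in neurons and -6.48 in MEF and was at least 715-fold higher. Cplx1, which clamps the fusion machinery, was at least 342-fold higher, with 1.86 in neurons and -6.56 in MEF. The SNARE proteins that carry out fusion differed less. Snap25 had 4.05 in neurons and 1.04 in MEF (8.06-fold higher), and Vamp2 had 3.25 in neurons and 0.88 in MEF (5.19-fold higher). Vesicle release genes were therefore of unequal contrast, with the calcium sensor not well above background in MEF and the SNAREs well above it. On the receiving side, 15 of 21 postsynaptic scaffold genes were higher and none lower, with a median of 1.37. Camk2b, a calcium-dependent kinase of dendritic spines, had 3.55 in neurons and -4.57 in MEF (277-fold higher). Nlgn3 and Nlgn1, adhesion molecules that face the axon terminal, had differences of 5.67 and 5.37.

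Receptors for both fast transmitters were higher on the neuron array. For glutamate receptors this held for 18 of 20 genes, with none lower and a median of 3.28, and for GABA and glycine receptors for 13 of 15, with none lower and a median of 5.27. Grm5, a metabotropic receptor, had 1.88 in neurons and -5.76 in MEF (200-fold higher). Gria2, the AMPA receptor subunit that sets calcium permeability, was at least 119-fold higher, with 0.29 in neurons and -8.78 in MEF. Gabra2, a subunit of the GABA-A receptor, was at least 388-fold higher, with 2.00 in neurons and -6.70 in MEF. These subunits were not well above background in MEF, apart from Grm5. Gabbr2, of the slow GABA-B receptor, had 4.40 in neurons and -2.31 in MEF (105-fold higher). Voltage-gated channels were higher for 22 of 26 genes and lower for 1, with a median of 1.96. Scn2a, an axonal sodium channel, had 2.51 in neurons and -2.44 in MEF (30.9-fold higher). The 1 lower gene, Scn8a, rests on its brightest of 3 probes, which had -0.14 in neurons and 1.79 in MEF, while the other two were higher in neurons, by 1.53 and by at least 1.01.

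Genes that mark a transmitter were mixed, with 11 of 21 higher, 3 lower and a median of 1.25. Their median level was -2.81 in neurons and -5.72 in MEF. In the 2 dimmest of 5 equal bins of mean level, 55.4% and 47.7% of all tested genes were higher, and 6.63% and 12.1% lower. Markers of both inhibitory and excitatory neurons were on the neuron array. Gad1 and Gad2, the enzymes that make GABA, were at least 299-fold and at least 244-fold higher, with neuron levels of 1.63 and 1.33 and neither well above background in MEF. Slc32a1, which loads GABA into vesicles, was at least 148-fold higher on its brightest probe, with 0.83 in neurons and -6.38 in MEF, and its other probe differed by 0.28. Slc17a6, the glutamate transporter VGLUT2, had 0.12 in neurons and -5.72 in MEF (57.3-fold higher). Slc17a7, the transporter VGLUT1 of cortical neurons, was at least 23.5-fold higher, with -2.05 in neurons and -8.62 in MEF. The aminergic genes did not follow: Ddc, which makes dopamine and serotonin from their precursors, had -3.69 in neurons and -1.18 in MEF (5.70-fold lower, and 0.28 on its other probe), and Dbh, of noradrenaline synthesis, had -4.57 in neurons and -3.39 in MEF. Hdc, the histidine decarboxylase of histamine synthesis, was the exception, at least 124-fold higher with 0.36 in neurons and -7.61 in MEF.

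Among neuropeptides and the granins that pack them, 21 of 26 genes were higher and 1 lower, with a median of 2.47. Scg3, a granin of dense-core vesicles, had 4.35 in neurons and -5.08 in MEF (692-fold higher). Npy, a peptide of forebrain interneurons, had 0.92 in neurons and -3.58 in MEF (22.6-fold higher), and Cck had 2.68 in neurons and -3.20 in MEF (58.7-fold higher). Sst, an interneuron peptide, had 3.01 in neurons and -5.03 in MEF, a difference of 8.04, but has an outlier spot on 1 of the arrays. Penk, the enkephalin precursor, was the lower member, with -0.97 in neurons and 0.88 in MEF (-1.86).

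Transcription factors that give neurons their regional identity were described by region, and differences between the regional lists were not tested. Of 22 factors of the cortex, 18 were higher and none lower, with a median of 2.83. Neurod6, of cortical projection neurons, had 1.74 in neurons and -6.22 in MEF (249-fold higher). Tbr1 and Fezf2, of deep-layer projection neurons, were at least 88.7-fold and at least 151-fold higher, with neuron levels of -0.13 and 0.64, and the other Tbr1 probe differed by 0.82. Factors of the ventral forebrain and interneurons were divided, with 12 of 20 higher, 5 lower and a median of 1.55, which was -0.12 over the 3 with a mean level of -1 or more. Dlx1 had -1.15 in neurons and -6.27 in MEF (34.8-fold higher) and Dlx2 was at least 12.3-fold higher, with -2.98 in neurons. The lower factors were Foxp1, Foxp2, Zfhx3, Ebf1 (-7.05 in neurons and -0.18 in MEF, at least 82.7-fold lower) and Lhx8 (-6.35 in neurons and -1.43 in MEF, 30.3-fold lower). Factors of the diencephalon, midbrain and hindbrain were higher for 12 of 24 and lower for 5 (median 0.84). Genes of sensory and autonomic neurons were higher for 9 of 16 and lower for 3 (median 1.09, and -0.13 after quantile normalization). The median levels of the ventral forebrain, diencephalic and sensory lists were -3.50, -3.46 and -4.89 in neurons. They were -5.08, -4.49 and -6.22 in MEF. In the 2 dimmest of 5 equal bins of mean level, 55.4% and 47.7% of all tested genes were higher, and 6.63% and 12.1% lower. Prph, the peripheral neurofilament, had -2.28 in neurons and -5.68 in MEF (10.6-fold higher).

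**Figure D2:**
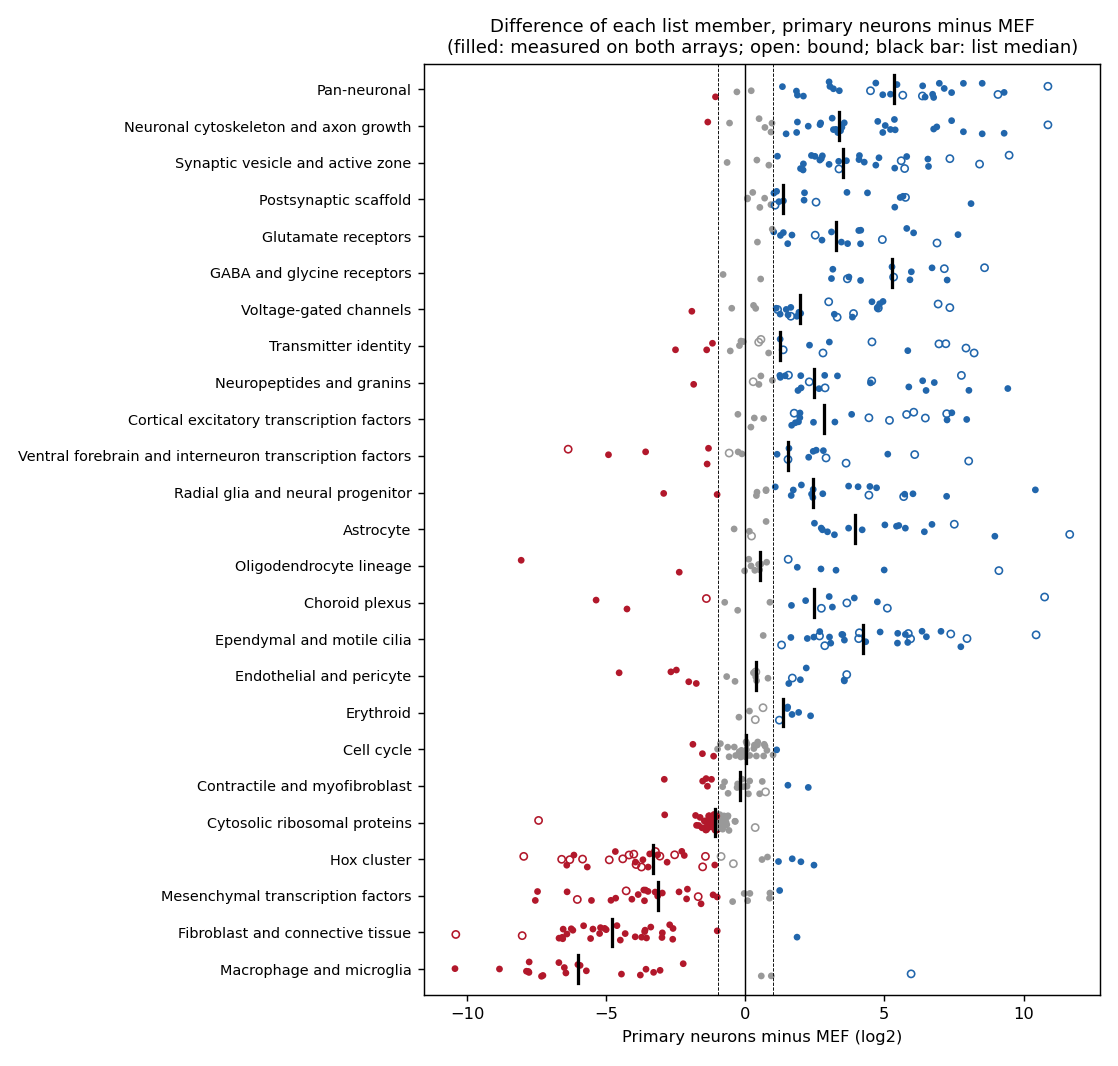
Difference between primary neurons and MEF (log2, horizontal axis) of each tested member of 25 gene lists, 1 point per gene, with filled points measured on both arrays, open points bounds and a black bar at the list median. Dashed lines mark 2-fold differences; blue points are higher and red points lower in neurons. The neuronal, astrocyte and cilia lists lie to the right of 0, and the fibroblast, mesenchymal, Hox and macrophage lists to the left.

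Markers of other brain cells were on the neuron array as well. Of 24 radial glia and neural progenitor genes, 18 were higher and 2 lower, with a median of 2.43. Fabp7, a lipid carrier of radial glia, had the largest upward difference of all genes measured on both arrays, with 5.19 in neurons and -5.24 in MEF (1375-fold higher). Sox2, which keeps progenitors undifferentiated, had 1.71 in neurons and -5.53 in MEF (151-fold higher), and Pax6 was at least 21.7-fold higher. Astrocyte genes were higher for 16 of 20, with none lower and a median of 3.96. Mlc1, a membrane protein of astrocyte endfeet, was at least 3237-fold higher, with 5.06 in neurons and -8.70 in MEF, the largest bound of any named gene that was higher. Gfap, the astrocyte intermediate filament, had 4.17 in neurons and -4.80 in MEF (501-fold higher), and Aqp4, the astrocyte water channel, had 4.17 in neurons and -0.85 in MEF (32.4-fold higher). The scanner software placed all 20 astrocyte genes well above background for neurons, and 17 for MEF. Genes of the oligodendrocyte lineage differed in both directions, with 37.5% higher and 12.5% lower, near the 30.3% and 16% of all tested genes. Olig1 was at least 554-fold higher and Olig2 31.8-fold higher, with neuron levels of 2.52 and -1.38, while the whole list had 6 of 16 higher, 2 lower and a median of 0.54 that was -0.07 with arrays centred on the median. Pdgfra, of oligodendrocyte precursors and of mesenchyme, was the lowest of the list (-8.06), and the myelin gene Cnp was higher by 2.72. Mbp, of myelin, had 3 probes that disagreed, with differences of -2.38 for the brightest, 1.23 and at least 3.25.

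Markers of the ciliated and secretory cells that line the ventricles were also on the neuron array. Foxj1, the master factor of motile cilia, was at least 1401-fold higher, with 3.85 in neurons and -7.09 in MEF, and 29 of 30 genes of ependyma and motile cilia were higher, with none lower and a median of 4.21. Spag6l, of the central pair of the axoneme, was at least 250-fold higher, with 1.37 in neurons and -8.73 in MEF. Drc1, of the dynein regulatory complex, had 2.65 in neurons and -5.09 in MEF (215-fold higher), and Dnah6, an axonemal dynein, had 2.01 in neurons and -4.50 in MEF (91.1-fold higher). The neuron array showed all 30 genes well above background, against 20 for MEF. Ttr, the thyroid hormone carrier made by the choroid plexus, was at least 1732-fold higher, with 4.16 in neurons and -8.73 in MEF. The listed choroid plexus genes, Ttr among them, were divided, with 10 of 16 higher and 3 lower, and Igf2 was the lowest (-5.36). Folr1, a folate receptor of the choroid plexus, had 1.61 in neurons and -3.14 in MEF (26.8-fold higher, and 0.85 on its other probe). The klotho gene Kl was not well above background in neurons. Endothelial and pericyte genes had 7 of 19 higher and 5 lower (36.8% and 26.3%), against 30.3% and 16% of all tested genes. Pecam1, the endothelial adhesion molecule, had -0.98 in neurons and -1.36 in MEF. Haemoglobin and other erythroid genes had 6 of 10 higher and none lower, at median levels of -5.74 in neurons and -7.21 in MEF. In the dimmest of 5 equal bins of mean level, 55.4% of all tested genes were higher and 6.63% lower. Hba-a1 had -2.14 in neurons and -4.06 in MEF, and Hba-a2 had 0.17 in neurons and 0.40 in MEF. The part of these cells in the neuronal differences was not tested.

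Connective tissue genes were lower on the neuron array with 1 exception among those listed. Of 32 fibroblast genes, 31 were at least 2-fold lower and 1 higher, with a median of -4.81. Col1a1 and Col1a2, the chains of collagen I, had 2.21 and -0.03 in neurons and 6.70 and 6.54 in MEF, differences of -4.50 and -6.56. Dcn, a proteoglycan that coats collagen fibrils, had 0.03 in neurons and 5.51 in MEF (44.6-fold lower). Aspn, a related proteoglycan, was not well above background in neurons, with -7.41 there and 3.86 in MEF, and was at least 1359-fold lower. Fn1, fibronectin, differed less, with 3.35 in neurons and 6.07 in MEF (6.59-fold lower). Although lower, collagen I and fibronectin were thus well above background in neurons, as were 30 of the 32 genes, and the part of fibroblasts among the neurons was not tested. The 1 higher gene, S100a4, a calcium-binding protein often used to mark fibroblasts, had 3.16 in neurons and 1.30 in MEF. Agtr2, the type 2 angiotensin receptor, had the largest bound of all, at least 5575-fold lower with -7.57 in neurons and 5.89 in MEF. Pdgfra, the growth factor receptor of mesenchyme and of oligodendrocyte precursors, had -5.08 in neurons and 2.98 in MEF (267-fold lower).

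Mesenchymal transcription factors were lower for 24 of 31 genes and higher for 1, with a median of -3.15. Twist2 and Twist1, which keep mesenchyme undifferentiated, had -5.74 and -1.34 in neurons and 1.81 and 3.49 in MEF, differences of -7.55 and -4.83. Tbx15, of limb and trunk mesenchyme, had -5.17 in neurons and 2.30 in MEF (177-fold lower), and Prrx1, of limb mesenchyme, had -0.85 in neurons and 3.23 in MEF (16.9-fold lower). Foxf1 was higher by 1.23 at low levels, -5.16 in neurons and -6.39 in MEF, and had -0.24 after quantile normalization. Contractile genes did not follow the matrix genes. Of 20, 5 were lower, 2 higher and 13 within 2-fold, with a median of -0.20. Acta2, smooth muscle actin, had 4.44 in neurons and 4.74 in MEF and carries an outlier spot on 1 of the arrays. Cnn1, calponin, had 1.41 in neurons and -0.86 in MEF (4.80-fold higher), and Tpm2, a tropomyosin, had 0.11 in neurons and 3.03 in MEF (7.54-fold lower). The probes of Smtn and Tpm1 disagreed in direction, with differences of 1.53 and -2.19 for Smtn and between -1.41 and 1.55 for Tpm1.

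By median, the macrophage list separated the 2 arrays further than the fibroblast list did (-6.02 against -4.81). The means were -5.02 and -4.67, and the shares that were lower were 87.0% and 96.9%. Of 23 macrophage and microglia markers, 20 were at least 2-fold lower in neurons and 1 higher, with a median of -6.02. Mrc1, the mannose receptor of tissue macrophages, had the largest measured difference downwards, with -5.62 in neurons and 4.81 in MEF (1387-fold lower). Csf1r, the receptor for the macrophage growth factor, had -0.11 in neurons and 5.91 in MEF (64.9-fold lower), and its other probes differed by -6.30 and -0.75. C1qc, of complement C1q, had -2.05 in neurons and 5.73 in MEF (218-fold lower), and Trem2 had -2.89 in neurons and 4.91 in MEF (223-fold lower). The median level of the list was -2.56 in neurons and 4.28 in MEF, with 23 and 22 of the markers well above background. On the 1, 3, 5 and 7 dpi arrays that median was 1.59, 0.31, -2.58 and -3.91, so the MEF array was the highest of the 6. Of the 20 genes with the largest measured downward differences, Stab1, Pf4, Ccl8, Clec4d and Lyz2 are known from macrophages. The 1 higher gene, Sall1, a microglia factor that neural progenitors also express, was at least 62.2-fold higher, with -0.64 in neurons and -6.83 in MEF. Of 23 interferon response genes, 12 were lower, 2 higher and 9 within 2-fold, with a median of -1.04. Of 17 antigen presentation genes, 8 were lower, 3 higher and 6 within 2-fold, with a median of -0.79. H2-K1, of MHC class I, had 3.31 in neurons and 5.30 in MEF (-1.99), while H2-Ab1 and H2-Aa, of MHC class II, were higher by 2.40 and 2.05. Oas1a, a sensor of viral RNA, had -2.97 in neurons and 2.18 in MEF (35.4-fold lower). Cxcl10, an interferon-induced chemokine, went the other way, with 0.92 in neurons and -3.33 in MEF (18.9-fold higher). The part of macrophage RNA on the MEF array in these differences was not tested.

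Hox genes, which mark position along the trunk and limbs and are off in the forebrain, were lower in neurons for 28 of 36 tested genes and higher for 4, with a median of -3.34. Of the tested genes, 19 were well above background in neurons and all 36 in MEF. Hoxd8 was at least 250-fold lower, with -8.62 in neurons and 1.41 in MEF. Hoxc6, at -5.32 in neurons, was 85.6-fold lower, and Hoxb2 was at least 97.2-fold lower, with -7.29 in neurons and 0.05 in MEF. Every tested gene of the Hoxb cluster, 8 of 8, was lower. By paralog number, 10 of 11 genes of groups 1 to 4, 9 of 11 of groups 5 to 8 and 9 of 14 of groups 9 to 13 were lower. The 4 higher genes all belonged to groups 9 to 13. Hoxa9 had 2.41 in neurons and 1.21 in MEF on its brightest probe (1.19) and a difference of 0.41 on the other, and Hoxd11 had -1.14 in neurons and -3.60 in MEF (5.53-fold higher). Hoxc12 and Hoxc13 were higher by 2.00 and 1.69 at low levels. Whether their probes match elsewhere in the genome was not tested.

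**Figure D3:**
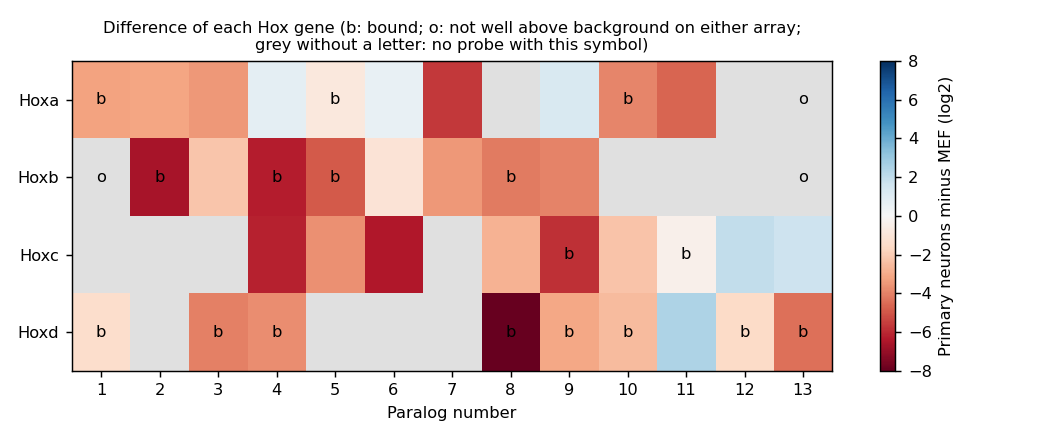
Difference between primary neurons and MEF (log2, colour) of each Hox gene, with clusters in rows and paralog number on the horizontal axis. Cells marked b are bounds, cells marked o had no array well above background, and plain grey cells have no probe with that symbol. Red is lower and blue higher in neurons: 28 genes were at least 2-fold lower, the palest cells lie within 2-fold, and the 4 genes at least 2-fold higher lie at paralog 9 or above.

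Of 22 imprinted growth genes, 10 were lower, 3 higher and 9 within 2-fold, with a median of -0.75. Dlk1, a Notch-like factor of mesenchyme, had -2.34 in neurons and 6.13 in MEF (355-fold lower). Cdkn1c, an inhibitor of the cell cycle, had -0.37 in neurons and 5.42 in MEF (55.3-fold lower), and Igf2, the fetal growth factor, had -2.25 in neurons and 3.12 in MEF (41.2-fold lower). Nnat, an imprinted gene of the developing brain, was the opposite, with 4.72 in neurons and -0.89 in MEF (48.7-fold higher).

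Families that both cell types use had members in both directions, as did all tested genes, with 30.3% higher and 16% lower. The share higher was 28.6% for collagen chains, 26.8% for matrix proteases, 25% for integrins, and 31.8% for ephrins and Eph receptors. The share lower, in the same order, was 45.2%, 46.3%, 33.3% and 31.8%. Among 42 collagen chains, 19 were lower and 12 higher, and Col22a1 was at least 23.4-fold higher. Of 41 matrix proteases and inhibitors, 19 were lower and 11 higher. Mmp3, stromelysin, was at least 140-fold lower, with -7.16 in neurons and 0.58 in MEF, and Mmp15, a membrane-bound protease, was 13.8-fold higher. Integrins had 8 of 24 lower and 6 higher, led by Itga11, a collagen receptor (-2.42 in neurons and 2.39 in MEF), and Itgb8, which activates TGF-beta in the brain (-1.69 in neurons and -6.39 in MEF). Among the signals, Wnt8b, of the dorsal forebrain, had 0.04 in neurons and -5.91 in MEF (61.7-fold higher), and Wnt5a had -0.82 in neurons and 1.67 in MEF (5.62-fold lower). Fgf13, a channel-binding member of the fibroblast growth factor family, had 1.30 in neurons and -4.28 in MEF (47.8-fold higher), and Fgf7, which mesenchyme sends to epithelium, had -1.91 in neurons and 2.28 in MEF (18.3-fold lower). Axon guidance genes were nearly balanced, with 20 of 49 semaphorins, netrins, slits and their receptors higher and 14 lower, and 7 of 22 ephrins and Eph receptors in each direction. Unc5a, a netrin receptor, had 0.36 in neurons and -5.44 in MEF, and Slit3 had -2.26 in neurons and 1.52 in MEF. Clustered protocadherins, which label single neurons, were higher for 18 of 35 and lower for none, led by Pcdhac2 with 1.65 in neurons and -3.75 in MEF (42.1-fold higher). Their median level was -2.70 in neurons and -4.04 in MEF. In the second dimmest of 5 equal bins of mean level, 47.7% of all tested genes were higher and 12.1% lower.

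Gene pairs with a member listed as neuron-enriched and a member listed as broadly expressed gave a comparison within protein families. These labels were given to the pairs and were not tested here. Syt2, listed as the broad partner of Syt1, had -6.12 in neurons and was not well above background in MEF. Tpm3, listed as neuron-enriched, had 3.66 in neurons and 4.48 in MEF. In 30 of 39 pairs the neuron-enriched member was at least 2-fold higher, in 10 the broad member was lower (9 genes, since Dnm2 is in 2 pairs) and in 4 the broad member was higher (Stmn1, Snap23, Ank1 and Prkca). Both held in 7 pairs, and in 35 pairs the difference of the neuron-enriched member lay above that of its partner. The median difference was 3.36 for the neuron-enriched members and -0.34 for the broad ones. Actl6b, a neuronal subunit of the BAF chromatin remodeller, had -1.43 in neurons and -6.06 in MEF (4.63), while Actl6a, its counterpart in dividing cells, had -0.26 in neurons and 0.19 in MEF (-0.45). Ptbp2, the splicing repressor that neurons switch to, had 1.09 in neurons and -0.29 in MEF (1.39), and Ptbp1 had 0.15 in neurons and 1.44 in MEF (-1.29, and -0.60 on its other probe). These pairs thus differed in what each partner did: both splicing repressors passed 2-fold on their brightest probes and the BAF pair only on the neuronal side. Aldoc, the brain aldolase, had 5.10 in neurons and -0.41 in MEF (5.52), and Aldoa had 3.91 in neurons and 4.21 in MEF. Aldoc is also in the astrocyte list, and the part of other brain cells in the pair differences was not tested. Cdh2, N-cadherin, had 3.63 in neurons and 1.54 in MEF (2.10), and Cdh11, the mesenchymal cadherin, had 0.56 in neurons and 5.00 in MEF (-4.44). Septin3 was the only neuron-enriched member that was lower, by 1.53 on its brightest probe, and its second probe was higher by 7.34. The second probe of Snap23 was likewise lower by 2.20, where the brightest was higher by 1.93.

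**Figure D4:**
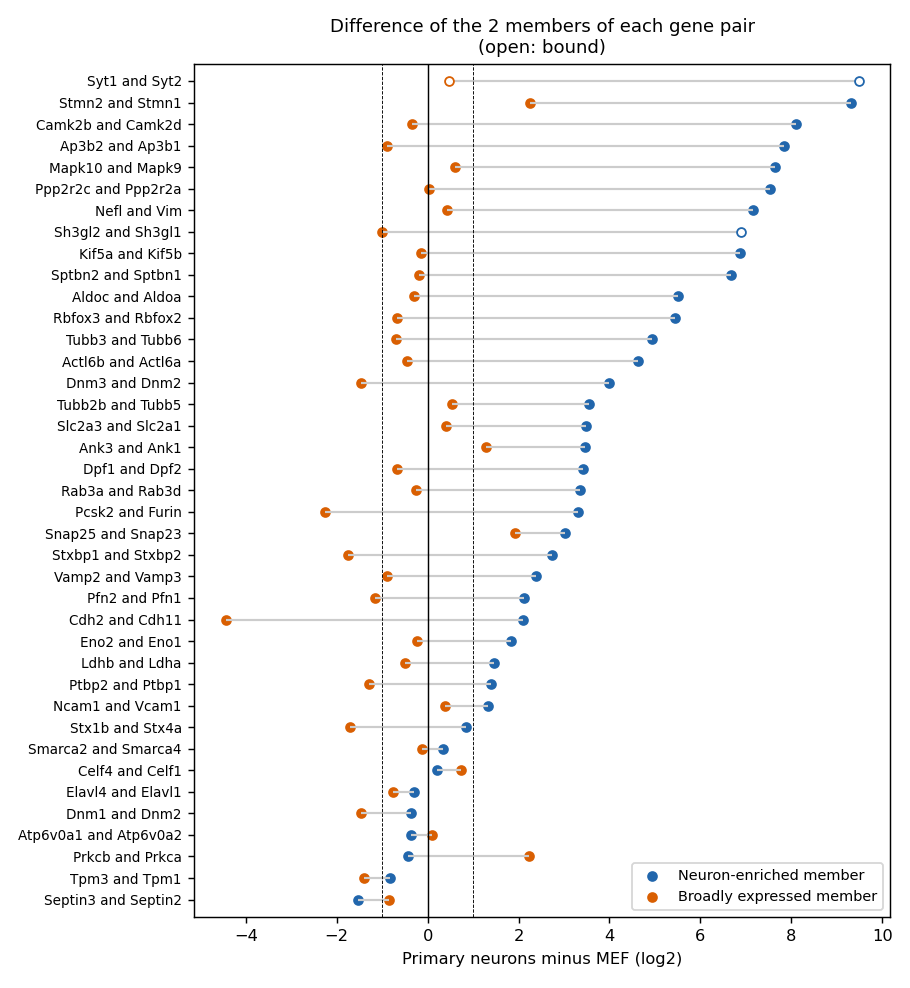
Difference between primary neurons and MEF (log2, horizontal axis) of the members listed as neuron-enriched (blue) and as broadly expressed (orange) in 39 gene pairs, joined by a line, with open points for bounds. Blue lies to the right of orange in 35 pairs.

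Factors of the REST complex were within 2-fold for 11 of 13 genes and lower for 2, and Rest itself had -0.75 in neurons and -0.09 in MEF (-0.66). The 300-base promoter windows of RefSeq, from 250 bases before each start to 50 after it, were searched on both strands for the RE1 core, AGCACC and GGACAG with 2 bases of any kind between them. It was found in 17 of 32851 windows (0.0517%), for 16 genes. Of the 14 that were tested here, 12 were at least 2-fold higher in neurons and none lower, where 29.8% of tested genes without it were higher. Most of these 14 genes had mean levels in the 2 dimmest of 5 equal bins. In those bins 55.4% and 47.7% of all tested genes were higher, and 6.63% and 12.1% lower. A second spelling, with TCAGNACC as its left part (N is any base), was in 11 windows (0.0335%) and shared 8 genes with the first, and all 9 tested genes were higher. The windows below show the element, in capitals, with up to 25 bases on each side on the strand of the gene, in RefSeq coordinates of GRCm38.p6; a core that reads CTGTCC first is on the other strand. The first 4 have the largest differences among genes whose first-spelling element lies before the start, and Rph3a is the same for genes with the second spelling alone. Ttc9b, with both spellings, had a bound above all 5 (at least 8.39), and Slc17a6, with the second spelling, differed by more than Rph3a (5.84). Both carry the element after the start, and no window is shown for them.
Gad2, chr2:22622139-22622202, plus strand: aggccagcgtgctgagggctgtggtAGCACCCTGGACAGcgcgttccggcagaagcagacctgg
Gria2, chr3:80802967-80803030, minus strand: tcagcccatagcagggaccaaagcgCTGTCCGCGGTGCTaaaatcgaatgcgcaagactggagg
Sptbn4, chr7:27396258-27396321, minus strand: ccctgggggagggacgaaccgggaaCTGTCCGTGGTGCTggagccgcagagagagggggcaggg
Fam163b, chr2:27142540-27142603, minus strand: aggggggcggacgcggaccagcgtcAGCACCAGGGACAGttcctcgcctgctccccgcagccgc
Rph3a, chr5:121009590-121009655, minus strand: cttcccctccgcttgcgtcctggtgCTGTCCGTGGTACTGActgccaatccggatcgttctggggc

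The genes shown were higher in neurons, as were most genes of the neuronal lists. The first spelling itself was in 0 of 17 pan-neuronal genes with a promoter window. It was also in 0 of 21 such genes of synaptic vesicles and the active zone. Gad2 had 1.33 in neurons and -8.65 in MEF, and Gria2 had 0.29 in neurons and -8.78 in MEF, neither well above background in MEF. Sptbn4, the spectrin of the axon initial segment, had 0.97 in neurons and -4.42 in MEF (5.39), and Fam163b had -0.40 in neurons and -4.86 in MEF (4.46). Rph3a, a synaptic vesicle protein with the second spelling, had -0.86 in neurons and -5.66 in MEF (4.80). Lhx3, a motor neuron factor, also carried the element and was higher by 3.00. The 2 tested genes with the first spelling that lay within 2-fold were Robo2, a guidance receptor, at -0.03, and Scamp5, a vesicle membrane protein, at 0.67. These motif genes were chosen after their values were seen. A match in the letters is a description and not a site at which binding was measured.

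RFX factors and Foxj1 act together on cilia genes, and RFX factors bind a motif called the X-box, here GTTNCC and GGNAAC with 2 bases of any kind between them. It was in 148 windows (0.451%), for 143 genes. Of the 86 tested, 42 (48.8%) were higher in neurons and 4 (4.65%) lower, against 29.7% and 15.6% of the tested genes without it. The 5 genes with the largest differences, predicted names left out, are shown in the same way.
Ccdc151, chr9:22002635-22002693, minus strand: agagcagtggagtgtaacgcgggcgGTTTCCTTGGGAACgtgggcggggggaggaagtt
Six3, chr17:85620688-85620751, plus strand: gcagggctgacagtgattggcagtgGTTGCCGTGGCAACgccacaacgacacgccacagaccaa
Iqca, chr1:90153498-90153561, minus strand: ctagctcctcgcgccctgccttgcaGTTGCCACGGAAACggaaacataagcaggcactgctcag
Klhdc9, chr1:171360842-171360905, minus strand: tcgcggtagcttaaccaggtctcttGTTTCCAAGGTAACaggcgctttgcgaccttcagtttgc
Gpr135, chr12:72071104-72071167, minus strand: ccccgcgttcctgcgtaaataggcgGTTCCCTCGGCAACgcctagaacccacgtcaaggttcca

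Ccdc151, needed to dock the outer dynein arms of cilia, was higher by 6.16 log2, and Six3, a forebrain factor, by at least 6.09. Iqca was higher by at least 5.63, Klhdc9 by 5.21 and Gpr135 by 4.73. Of the 25 listed cilia genes with a promoter window, 1 (Pifo, 4.33) held this spelling. The CArG box, to which the muscle and cytoskeleton regulator SRF binds, was in the windows of 249 tested genes. Of these, 71 (28.5%) were higher and 47 (18.9%) lower, against 29.8% and 15.5% of genes without it. The Sox motif CTTTGTTC was in those of 249 tested genes too, of which 103 (41.4%) were higher and 31 (12.4%) lower, with a median of 0.79, against 29.6% and 15.6% of genes without it. A skew upwards was thus not limited to the RE1 core and the X-box. In all, 10 spellings of motifs were searched.

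**Figure D5:**
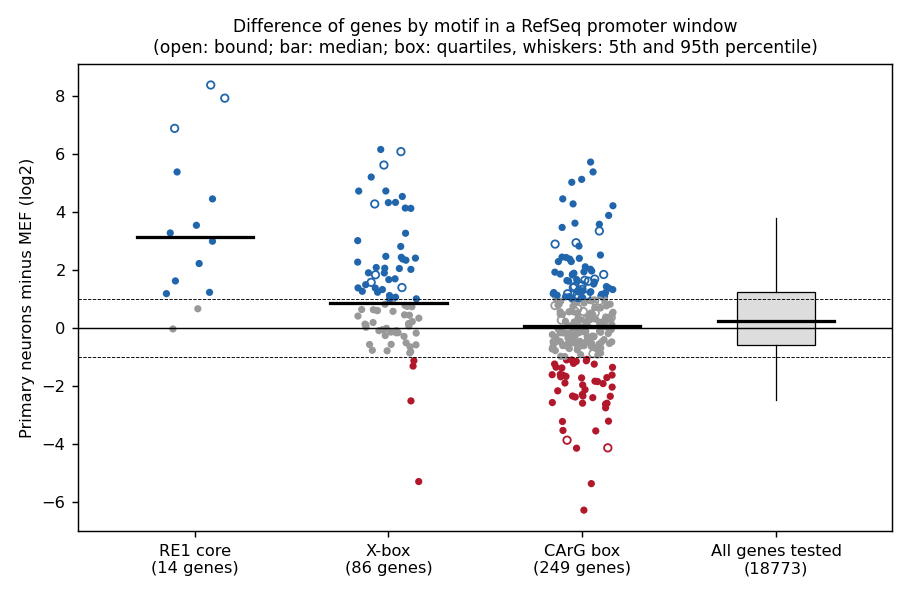
Difference between primary neurons and MEF (log2, vertical axis) of the tested genes whose RefSeq promoter window holds the RE1 core, the X-box or the CArG box, with all tested genes as a box of quartiles with whiskers at the 5th and 95th percentiles. Points are genes, open points bounds, and bars medians, which are 3.14, 0.87 and 0.08 for the 3 motifs and 0.26 for all tested genes.

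Of 6 microRNA host transcripts looked up, 4 were at least 2-fold higher in neurons, 1 was lower and 1 lay within 2-fold. Of all tested genes, 30.3% were higher and 16% lower. All of these hosts but Mirg had mean levels in the 2 dimmest of 5 equal bins. In those bins 55.4% and 47.7% of all tested genes were higher, and 6.63% and 12.1% lower. Mir9-3hg, which holds a copy of miR-9, was at least 242-fold higher, with 1.32 in neurons and -8.73 in MEF, and on no Tet3 array was it well above background. Mir124-2hg, host of miR-124, was at least 5.21-fold higher, with -4.08 in neurons and -6.46 in MEF. It had -2.60 on the 7 dpi array, and every host other than Mir9-3hg was well above background on all 4 Tet3 arrays. Mir100hg and Mir99ahg, each the host of a small cluster, were higher by 1.97 and 1.38, while Mir17hg was within 2-fold (-0.91) and Mirg was lower (-1.55). The array read the host RNA and not the mature microRNA. These hosts were chosen after their values were seen. Mature sequences from Mir9-3hg, Mir99ahg and Mir100hg, from RefSeq (GRCm38.p6), follow with the seed, bases 2 to 8, in capitals.
mmu-miR-9-5p, from Mir9-3hg: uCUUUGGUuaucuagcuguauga
mmu-miR-99a-5p, from Mir99ahg: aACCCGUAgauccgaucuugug
mmu-let-7c-5p, from Mir99ahg: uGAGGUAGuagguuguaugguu
mmu-miR-100-5p, from Mir100hg: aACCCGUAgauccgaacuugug
mmu-miR-125b-5p, from Mir100hg: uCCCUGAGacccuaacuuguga
The hosts Mir99ahg and Mir100hg thus each carry a microRNA with the seed ACCCGUA.

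Programmes shared by all cells differed little or moved together by a small amount. Of 30 cell cycle genes, 26 were within 2-fold, 3 were lower and 1 higher, with a median of 0.04 that was -0.57 with arrays centred on the median. Mki67, the proliferation marker, had 0.71 in neurons and 0.31 in MEF. Proliferation genes were therefore on the neuron array at about the level of MEF. Of 81 genes of oxidative phosphorylation, 76 were within 2-fold, and 15 of 23 glycolytic genes were. Of the other glycolytic genes 6 were higher and 2 lower. The higher ones were Aldoc, given above, Slc2a3 (3.49), Pfkp (2.97), Eno2 (1.84), Pfkm (1.67) and Ldhb (1.45). The lower ones were a transporter and a hexokinase. Slc16a3, which exports lactate, had -1.72 in neurons and 2.03 in MEF (13.4-fold lower), and Hk2, a hexokinase, had -1.48 in neurons and 1.29 in MEF (6.83-fold lower). Cytosolic ribosomal protein genes were lower for 50 of 82 and higher for none, with a median of -1.07 that was -0.60 after quantile normalization. Rpl39l, a copy of restricted expression, was the furthest, at least 173-fold lower. The brightest of 5 bins of all tested genes had a median of -0.39.

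The enzymes of DNA demethylation differed little. Tet3, the factor used in the other arrays of the study, had -0.72 in neurons and -0.22 in MEF (-0.50), Tet2 had -0.93 in neurons and -0.98 in MEF, and Tet1 had 0.08 in neurons and -1.49 in MEF (1.57). Of 19 genes of DNA methylation and demethylation, 3 were higher and 2 lower. Among 22 immediate early genes, 10 were higher, 1 was lower and 11 lay within 2-fold, with a median of 0.68. Npas4, a factor of neurons, had -0.63 in neurons and -3.79 in MEF (8.96-fold higher), and Arc, a synaptic protein, had -0.52 in neurons and -3.56 in MEF (8.24-fold higher). Xist, the RNA of the inactive X chromosome, was at least 65.0-fold higher, with -0.58 in neurons and -8.70 in MEF. Ddx3y, on the Y chromosome, had -1.77 in neurons and 0.29 in MEF (4.15-fold lower) and was well above background on both arrays.

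The direction of a difference went with the level of the gene. In the dimmest of 5 equal bins of mean level, 55.4% of genes were at least 2-fold higher and 6.63% lower in neurons, and in the brightest 8.52% were higher and 23.7% lower. The part of the detection gap between the arrays in this slope was not tested. Over all tested protein-coding genes with a length, 36.9% of the longest bin and 33.4% of the shortest were higher, against 24.6% of the middle bin. Among protein-coding genes with a mean level of -1 or more, 19.6% of the longest genes (65.2 to 2271 kb) were higher, against 9.75% of the shortest (up to 7.48 kb). The share that was lower was 21.5% and 21.7%. Long genes are known to be common among those of synapses and axons.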

How the data were processed

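Total RNA was labelled with Cy3 and hybridised to single-colour mouse arrays, and the submitters' processing notes name version 11.0.1.1 of Agilent Feature Extraction for the spot values. The deposited table holds the authors' log2 values with the 75th percentile of each array at 0. The scanner files hold intensity values per spot as deposited, with flags for background and outlier spots; those of the neuron array have 3 significant digits. Set against log2 intensity, the table correlated at 0.999994 for neurons and 0.999991 for MEF, which settled its scale and direction. The brightest probe stood for each gene, and 2-fold was the threshold. A bound sets the dim array at the higher of the probe's own value and the lowest value among probes well above background there.

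With 1 array per group there are no p-values, and the single array limits the precision. Members, the 52 gene lists and the pairs were chosen with earlier results of these data known, and the 10 motif spellings after values were seen. Named are genes chosen for their role, the 20 measured and 15 bound genes furthest each way, from each list as many as 6 that differed most and 3 called against its majority, all members of the smallest lists, and both members of pairs. Predicted names and genes with an outlier spot were left out of the rule; Sst, Acta2, Hba-a2, microRNA hosts and motif genes fall outside it. Alternatives were quantile normalization and normexp background correction (limma 3.58.1, offset 50, on median signals), median centring, scanner values, other filters, other thresholds and the mean over probes. The scripts were tested on simulated data. Some genes that the rule names are not reported here.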

Additional observations from a re-analysis of the deposited data

How the results depend on the processing

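The count of genes at least 2-fold higher, 5688, was 3310 after quantile normalization, 3511 with arrays centred on the median, 1130 among genes with a mean level of -1 or more, and 2548 at a 4-fold threshold. The count of genes at least 2-fold lower, 3005, was 3786, 5637, 1914 and 1266 in the same settings. Of 52 list medians, 38 moved by little and 13 by more after quantile normalization, and 1 changed sign, sensory and autonomic neuron genes at -0.13. Among genes with a mean level of -1 or more few members were left: the median had the other sign for ventral forebrain factors (-0.12, 3 genes) and Wnt ligands (-0.0031, 5 genes), and for erythroid genes (-0.23) and the Hox cluster (1.19) the value is that of 1 gene each, Hba-a2 and Hoxa9, which gives no direction of a list. Transmitter identity had -0.12 over members well above background on both arrays. Of the named genes, Foxf1 had -0.24 after quantile normalization, and with the mean over probes the sign changed for Mbp (0.80), Scn8a (0.92), Septin3 (2.91), Smtn (-0.33), Snap23 (-0.14) and Tpm1 (0.58). Normexp correction changed the sign of no list median or named gene but moved 185 of 461 named genes. The cause of these changes was not tested, apart from the stricter filters and threshold, which leave fewer genes. No paired analysis was possible because each group has 1 array. Signal near background limits the dimmest genes to bounds.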
